A study of Arabidopsis thaliana with 28 samples.

Results

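The enzymes described here build suberin, the waterproof polyester laid down in the walls of root endodermis, periderm and seed coat. The set held 10 genes named by locus, and all 10 were found among the 18310 genes of the expression table. They were 2 glycerol-3-phosphate acyltransferases (GPAT5, GPAT7), 2 cytochrome P450 fatty acid hydroxylases (CYP86A1, CYP86B1), 3 fatty acyl-CoA reductases (FAR1, FAR4, FAR5), a feruloyl transferase (ASFT) and 2 3-ketoacyl-CoA synthases (KCS2, KCS20). They were named by locus for their part in suberin synthesis, with earlier results of these data known. RNA was taken from whole Arabidopsis thaliana seedlings of the accession Col-0, which had been kept in darkness for 3 days in hydroponic culture. The treated groups received 10 µM abscisic acid (ABA) for 1, 4, 8, 12, 24, 36 or 60 h, and at each of these 7 times a mock group received ethanol. Each of the 14 groups had 2 libraries, so 14 libraries were treated with ABA and 14 with mock, all from unmodified plants grown without light.

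Suberin is a polyester of glycerol, long-chain and very-long-chain fatty acid derivatives and ferulic acid. KCS enzymes lengthen acyl chains, CYP86 enzymes add a hydroxyl group at the far end of the chain, FAR enzymes reduce acyl-CoAs to primary alcohols, GPAT enzymes attach the oxidised acyl groups to glycerol, and ASFT adds ferulate to the hydroxyl end. In Arabidopsis roots ABA is known to increase endodermal suberin, and several of these genes are widely used as suberin reporters.

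The libraries held between 16265926 and 26604530 reads on the genes of the table (median 20546830), as recovered from the steps in the deposited values. Levels are in RPKM, reads scaled for gene length and library size. For GPAT5 1 read was worth 0.019 to 0.033 RPKM, so the low mock values below rest on a few reads. The labels name whole seedlings, and genes of root and shoot were both present; at 4 h 1 of 3 root markers (TIP2;3) and 0 of 5 shoot markers were called higher with ABA, and none lower. TIP2;3, a root aquaporin gene, was called lower with ABA at 36 h (-1.13, adjusted p = 0.000638) and 60 h (-0.99, 0.00221), and no other root marker was called at any time. No shoot marker was called at a single time. At 24 h RBCS1A averaged 3453 RPKM with ABA and 5462 in mock (-0.66, adjusted p = 0.144) and was called lower over the mean of times (-0.35, 0.00985), and LHCB1.1 averaged 25.9 RPKM with ABA and 78.0 in mock at 24 h (-1.60, 0.324; 0.00098 with the replicate block described below). The part of these markers in the later effects was not tested. All 9 endodermis markers checked, among them the Casparian strip genes CASP1 and CASP5, were above 0 in every library. Their summed level ran from 385 to 1286 RPKM with ABA (median 769) and from 558 to 1291 RPKM in mock (median 774). In bulk seedlings, a change in the number of suberising cells and a change in RNA per cell cannot be told apart. The labels do not say that the 2 libraries of a group came from separate cultures, so p-values measure only the spread between these libraries. Effects are ABA minus mock on the log2(RPKM + 1) scale, which understates changes of genes near 0. A gene is called higher or lower where limma's Benjamini-Hochberg adjusted p, taken over all 18310 genes, was under 0.05.

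The upstream sequences of 5 genes are shown because they carry the contrasts among the responses below: GPAT5 and GPAT7 had the 2 highest effects of the set, ASFT had the third at 4 h, and KCS2 and KCS20 are close relatives that differed in their response. Each window is the 250 bases before the annotated gene start in RefSeq's TAIR10.1 annotation, 5′ to 3′ on the strand of the gene. Capitals mark ACGTG on either strand, the core of the sequence that ABA-related bZIP factors are known to bind, and 4 AC elements on either strand, which MYB factors of phenylpropanoid genes are known to bind. The windows lie at chr3:3595444-3595693 on the plus strand for GPAT5, chr5:1834797-1835046 on the plus strand for GPAT7, chr5:16431054-16431303 on the plus strand for ASFT, chr1:1122787-1123036 on the minus strand for KCS2 and chr5:17585273-17585522 on the plus strand for KCS20.
GPAT5: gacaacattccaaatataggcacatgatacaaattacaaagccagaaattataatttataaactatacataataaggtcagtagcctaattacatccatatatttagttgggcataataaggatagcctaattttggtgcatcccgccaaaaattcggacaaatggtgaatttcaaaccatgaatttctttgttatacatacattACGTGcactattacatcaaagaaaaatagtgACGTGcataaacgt
GPAT7: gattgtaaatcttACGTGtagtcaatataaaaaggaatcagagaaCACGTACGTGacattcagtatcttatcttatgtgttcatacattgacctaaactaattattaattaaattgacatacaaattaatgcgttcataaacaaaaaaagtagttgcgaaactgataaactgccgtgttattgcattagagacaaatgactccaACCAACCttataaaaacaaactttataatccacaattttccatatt
ASFT: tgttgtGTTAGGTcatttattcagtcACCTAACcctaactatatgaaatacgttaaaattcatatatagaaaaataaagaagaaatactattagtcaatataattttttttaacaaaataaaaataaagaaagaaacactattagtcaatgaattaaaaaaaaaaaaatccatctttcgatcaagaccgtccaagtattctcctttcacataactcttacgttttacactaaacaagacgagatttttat
KCS2: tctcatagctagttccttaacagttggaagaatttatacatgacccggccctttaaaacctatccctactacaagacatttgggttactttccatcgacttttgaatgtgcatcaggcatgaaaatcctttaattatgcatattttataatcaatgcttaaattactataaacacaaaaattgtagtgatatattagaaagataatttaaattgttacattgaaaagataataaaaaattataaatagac
KCS20: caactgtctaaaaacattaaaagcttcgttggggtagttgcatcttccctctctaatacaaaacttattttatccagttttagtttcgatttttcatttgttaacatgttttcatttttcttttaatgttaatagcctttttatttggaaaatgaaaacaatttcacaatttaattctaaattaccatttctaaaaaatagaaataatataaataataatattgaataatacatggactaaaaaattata
GPAT5 has ACGTG at -45 and -14 from the gene start. In GPAT7 it begins at -237, -205 and -200, and the neighbouring pair runs in opposite directions. FAR1 and FAR4, whose windows are not shown, hold 1 match each, and the windows of the other 6 genes hold none. ACGTG was thus in 4 of the 10 windows, against 24.1% of the 17842 windows of protein-coding genes in the table. At least 2 matches were in 2 of the 10, against 4.98% of the 27443 windows of all protein-coding genes, measured or not. Of the genes called higher below, GPAT5, GPAT7 and FAR4 have a match, and CYP86A1, CYP86B1, FAR5, ASFT and KCS2 have none. Of those called only with the replicate block described below, FAR1 has a match and KCS20 has none. The part of the matches in the ABA effects was not tested. CACGTG and the longer forms (ACGTGGC or, alternatively, ACGTGTC) were in none of the 10 windows, against 7.85% and 7.86% of the measured genes, and each of these contains ACGTG. The AC elements searched were ACCTACC, its variant ACCAACC, the form ACCTAAC and the form ACCAAAC. They were in 2 of 10 windows, at -244 and -224 in ASFT and at -46 in GPAT7, against 14.2%. These matches are a description of the letters in the windows and not of binding.

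ABA raised most of the suberin enzymes within 4 h, and none was called lower at any time. Of all genes, 0.393% were called lower at 1 h, 3.74% at 4 h, 3.57% at 8 h, 4.09% at 12 h, 3.88% at 24 h, 5.59% at 36 h and 5.73% at 60 h. At 1 h 0 of the 10 genes was called higher by limma, where 1.70% of all genes were; 3 of the 10 had an effect above 0 with an unadjusted p under 0.05 (GPAT5, GPAT7 and ASFT), against 4.76% of all genes. At 4 h 7 of 10 were higher, against 8.98% of all genes. The count was 7 of 10 at 8 h (7.92% of all genes), 8 at 12 h (8.37%), 7 at 24 h (6.64%), 8 at 36 h (8.24%) and 8 at 60 h (7.84%). The median effect over the 10 genes was 3.28 at 4 h, against -0.019 over all genes, and 1.88, 1.93, 0.85, 1.74 and 1.41 at the 5 later times. Averaged over the 7 times, 8 genes were higher, against 21.0% of all genes, and 0 lower, against 18.1%, with FAR1 and KCS20 not called. Both ABA libraries were above both mock libraries in 8 of 10 genes at 4 h, against 27.1% of all genes, and in 9 of 10 at 60 h, against 22.5%. GPAT5, GPAT7, CYP86B1, FAR4, ASFT and KCS2 were called higher at each of the 6 times from 4 h on, which held for 4.00% of all genes. In GPAT5, GPAT7, ASFT and KCS2 every one of the 14 ABA libraries was above every one of the 14 mock libraries, as in 1.68% of all genes. The table holds only genes that passed the authors' filter on low values. In any mock library GPAT5 had at most 12 reads, GPAT7 5, CYP86A1 40, CYP86B1 9, FAR4 30 and FAR5 12. Genes this low in mock could pass such a filter through their ABA libraries, which leaves little room for a call lower. For these genes the counts and shares describe the set and are no test of it.

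With a block for libraries that share a time and a replicate number, more genes were called in the set and in the whole table. It called 2 of the 10 genes higher at 1 h (3.89% of all genes), 8 at 4 h (16.8%), 8 at 8 h (15.5%), 8 at 12 h (16.6%), 8 at 24 h (13.6%), 8 at 36 h (16.0%) and 9 at 60 h (14.9%). Over the mean of times it called 9 higher, against 29.1% of all genes. FAR1 was called lower at 8 h, against 9.46% of all genes, and at 12 h, against 11.8%. Among the 9 endodermis markers none was called at 4 h (median effect 0.43, against 3.28 for the suberin enzymes), although the block called 4 of them higher. At 36 h 2 of the 9 were called lower (8 with the block). Without the block 5.59% of all genes were called lower at 36 h and 5.73% at 60 h. The block's own share of all genes lower is not given here for 36 h or 60 h. At 8 h and 12 h that share was 9.46% and 11.8%, so the block counts of markers lower cannot be set against the shares without it. Their summed level was 1286 and 845 RPKM in the ABA libraries at 4 h, against 800 and 640 RPKM in mock. At 60 h it was 573 and 385 RPKM with ABA, against 1110 and 781 RPKM in mock, and CASP4 and ESB1 were called lower (8 of the 9 with the block) while 8 suberin enzymes were called higher. The part of these markers in the results was not tested.

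**Figure D1:**
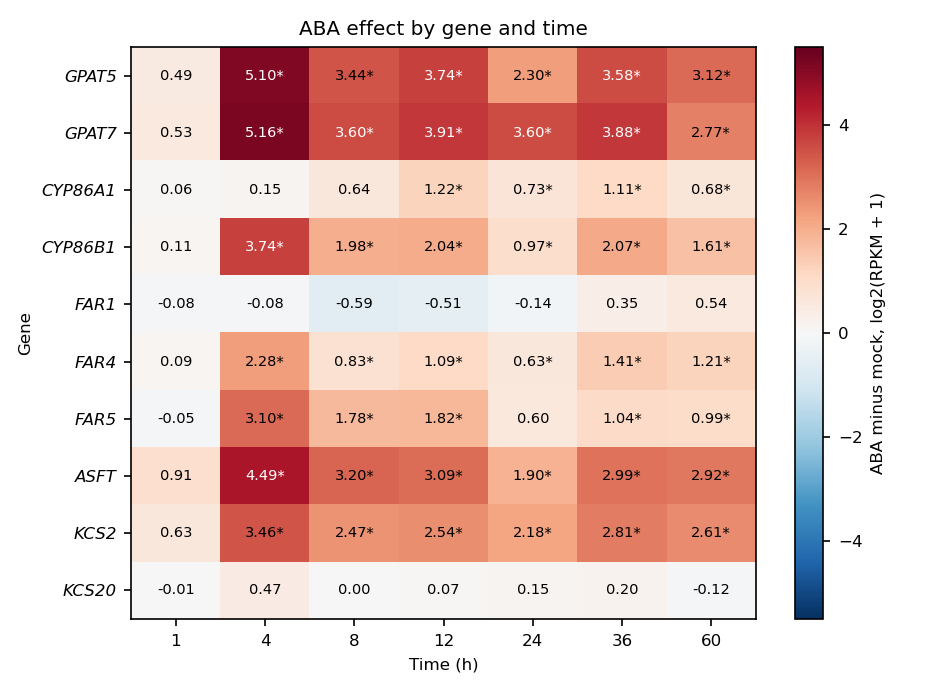
Effect of ABA on each suberin gene (rows) at each time in hours (columns), as ABA minus mock on the log2(RPKM + 1) scale from 2 libraries per group. Asterisks mark limma adjusted p under 0.05; the values of GPAT5, GPAT7 and ASFT at 4 h (5.10, 5.16 and 4.49) are the darkest, and the rows of FAR1 and KCS20 have no asterisk.

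**Figure D2:**
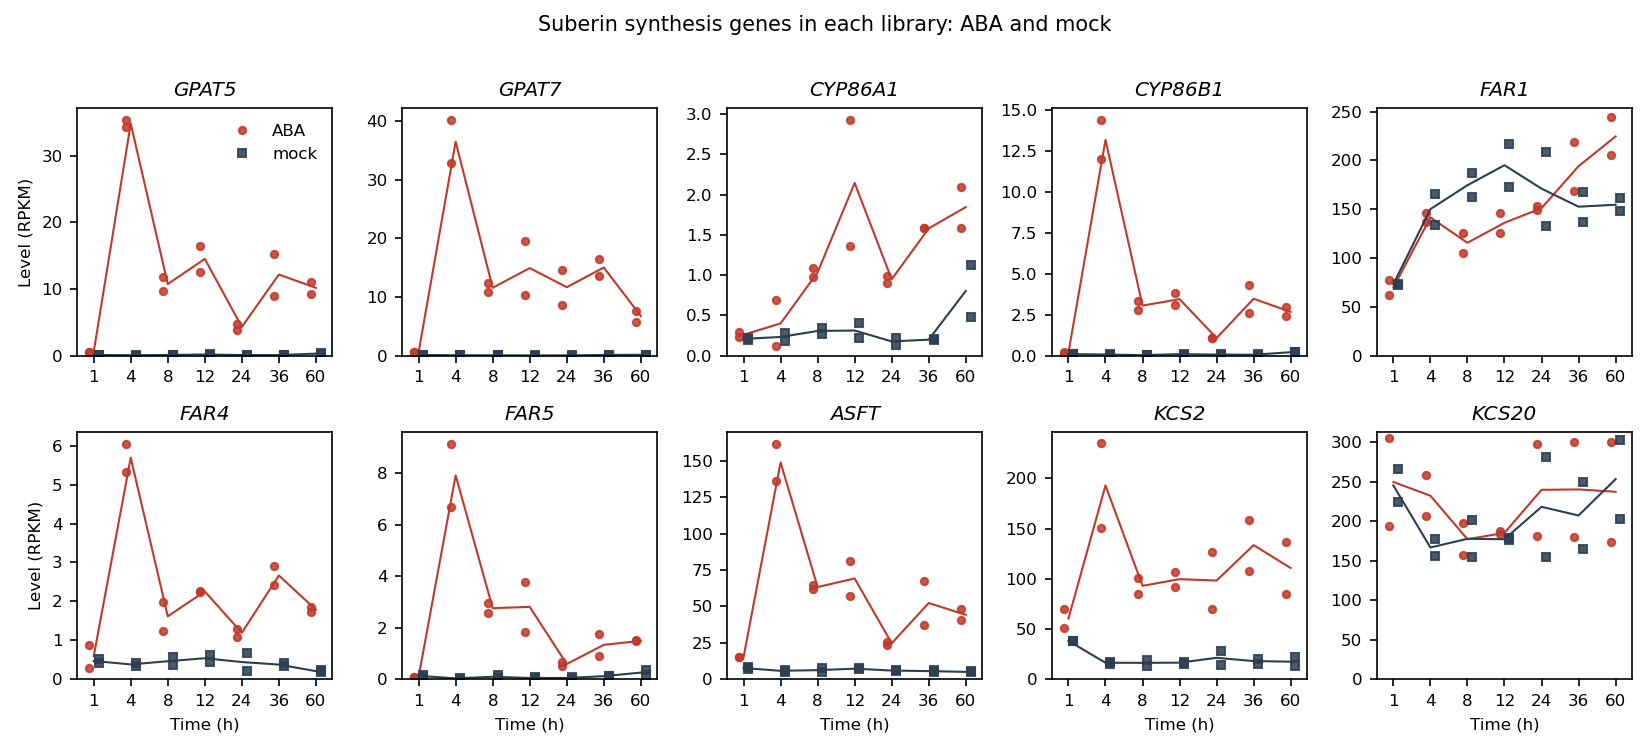
Level in RPKM (linear axis, a separate scale in each panel) of each gene against time in hours, with ABA libraries as red circles left of mock libraries as dark squares and lines through the group means. In 7 of the 10 panels the ABA mean is highest at 4 h, while FAR1 and KCS20 are abundant in both treatments. Both ABA libraries of FAR1 lie below both mock libraries at 8 and 12 h and above them at 36 and 60 h.

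The 2 acyltransferases stayed at or below 0.310 RPKM in mock seedlings and reached more than 30 RPKM with ABA. GPAT5 (AT3G11430, chr3:3595694-3597952, 2 exons), whose loss is known to reduce suberin in roots and seed coats, had 35.3 and 34.3 RPKM with ABA at 4 h, against 0.0861 and 0 RPKM in mock. These rest on 2894 reads in the ABA libraries and 4 in mock. The depth-scaled ratio of reads was 700, with a 95% interval of 273 to 2570 that covers counting error only, as do all such intervals below. The effect was 5.10 ± 0.17 (SE; adjusted p = 9.71e-13). By 24 h GPAT5 had dropped to 3.87 and 4.70 RPKM with ABA, against 0.0913 and 0.0502 in mock, an effect of 2.30 ± 0.17. At 36 h it had 9.0 and 15.3 RPKM with ABA, against 0.0298 and 0.106 in mock, and at 60 h 11 and 9.30 RPKM with ABA, against 0.255 and 0.310 in mock. ABA and mock libraries did not overlap at any time, including 1 h, when GPAT5 had 0.474 and 0.564 RPKM with ABA, against 0.0502 and 0.112 in mock (effect 0.49 ± 0.17, adjusted p = 0.278; ratio of reads 6.13, interval 2.73 to 16.2).

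GPAT7 (AT5G06090, chr5:1835047-1837037, 2 exons), a close relative of GPAT5, had 40.1 and 32.8 RPKM with ABA at 4 h, against 0.0276 and 0.0612 in mock. The mock reads at 4 h came to 3 in all, and the ratio of reads was 767 with an interval of 262 to 3720. Its effect was 5.16 ± 0.22 (adjusted p = 1.48e-11). GPAT7 kept more of its level than GPAT5 at 24 h, with 14.6 and 8.69 RPKM with ABA, against 0 and 0.0322 in mock (effect 3.6 ± 0.22). Relative to 4 h, the ABA mean at 24 h was 31.9% for GPAT7 and 12.3% for GPAT5, while at 60 h it was 18.4% for GPAT7 and 29.2% for GPAT5. Averaged over times the effects were 3.35 ± 0.08 for GPAT7 and 3.11 ± 0.07 for GPAT5. At 1 h both genes were called higher when a pseudocount of 0.1 replaced 1 (adjusted p = 0.00312 for GPAT7 and 0.00297 for GPAT5).

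The 2 hydroxylases differed in time and size. CYP86B1 (AT5G23190, chr5:7803141-7805968), known to hydroxylate very-long-chain fatty acids, had 14.4 and 12.0 RPKM with ABA at 4 h, against 0.0382 and 0.0847 in mock. Its effect there was 3.74 ± 0.15 (adjusted p = 4.21e-12), and the ratio of reads was 201 with an interval of 91.9 to 548. Both ABA libraries of CYP86B1 were above both mock libraries at all 7 times, but its level fell to 1.09 and 1.05 RPKM with ABA at 24 h, against 0.0270 and 0.0891 in mock (effect 0.97 ± 0.15, adjusted p = 0.00018). At 36 h it had 2.61 and 4.34 RPKM with ABA, against 0 and 0.0938 in mock.

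CYP86A1 (AT5G58860, chr5:23765791-23768111), known to hydroxylate shorter long-chain acids and used as a root suberin marker, never exceeded 2.93 RPKM. At 4 h it had 0.685 and 0.112 RPKM with ABA, against 0.280 and 0.181 in mock, and these libraries overlapped (effect 0.15 ± 0.21, adjusted p = 0.769). At 12 h it had 2.93 and 1.36 RPKM with ABA, against 0.404 and 0.217 in mock (effect 1.22 ± 0.21, adjusted p = 0.000378). The levels at 36 h were 1.58 and 1.58 RPKM with ABA, against 0.194 and 0.200 in mock (effect 1.11 ± 0.21). It was also called higher at 24 h (0.73 ± 0.21, adjusted p = 0.0288) and 60 h (0.68 ± 0.21, adjusted p = 0.0367). The call at 24 h was lost on leaving out any of its 4 libraries (adjusted p between 0.0856 and 0.157), and that at 60 h without either ABA library or without mock replicate 1 (adjusted p between 0.0542 and 0.369), with a pseudocount of 0.1 (0.119) or with voom weights on the recovered reads (0.113). With the replicate block it was called at 8 h too (0.64, adjusted p = 0.0075).

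Among the reductases, FAR4 and FAR5 responded from low levels and FAR1 was abundant in both treatments. These 3 enzymes are known to make suberin fatty alcohols, each with its own preferred chain length. FAR4 (AT3G44540, chr3:16123426-16128030) had 6.06 and 5.33 RPKM with ABA at 4 h, against 0.409 and 0.347 in mock, an effect of 2.28 ± 0.18 (adjusted p = 2.63e-08). Its effect was smallest among the called times at 24 h, with 1.09 and 1.29 RPKM with ABA, against 0.681 and 0.196 in mock (0.63 ± 0.18, adjusted p = 0.0272). That call was lost without either ABA library (adjusted p = 0.0756 without replicate 1 and 0.172 without replicate 2) or without mock replicate 2 (0.327). At 8 h the FAR4 call (0.83 ± 0.18, adjusted p = 0.00321) was lost without ABA replicate 1 (0.0659) or mock replicate 2 (0.0521).

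FAR5 (AT3G44550, chr3:16137576-16142270) lies 9545 bases downstream of FAR4 on the same strand. It had 9.14 and 6.69 RPKM with ABA at 4 h, against 0 and 0.0551 in mock, where 2 reads were counted in all. The effect was 3.10 ± 0.20 (adjusted p = 2.47e-09) and the ratio of reads 279, with an interval of 76.8 to 2305. By 24 h it was down to 0.674 and 0.497 RPKM with ABA, against 0 and 0.0869 in mock, and the effect of 0.60 ± 0.20 was not called (adjusted p = 0.0657; 0.0276 with the replicate block). The 2 ABA libraries were above the 2 mock libraries at every time from 4 h for both FAR4 and FAR5, and overlapped them at 1 h.

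FAR1 (AT5G22500, chr5:7470328-7474133) had 61.5 to 244 RPKM with ABA and 72.5 to 217 RPKM in mock. At 8 h it had 126 and 105 RPKM with ABA, against 187 and 162 in mock, so that both ABA libraries were below both mock libraries (-0.59 ± 0.20, adjusted p = 0.0733). At 12 h the values were 146 and 126 RPKM with ABA, against 217 and 173 in mock (-0.51 ± 0.20, adjusted p = 0.124). At 60 h the order was the other way, with 205 and 244 RPKM with ABA, against 148 and 161 in mock (0.54 ± 0.20, adjusted p = 0.0987). None of these passed, but the replicate block called FAR1 lower at 8 h (adjusted p = 0.0102) and 12 h (0.0205) and higher at 60 h (0.0148). An annotated protein-coding gene on the other strand, AT5G22505, shares 1310 bases with FAR1.

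ASFT (AT5G41040, chr5:16431304-16433305, 4 exons), which transfers ferulate to hydroxy fatty acids, had a measurable mock level and a large response. It had 162 and 136 RPKM with ABA at 4 h, against 6.56 and 4.83 in mock, an effect of 4.49 ± 0.23 (adjusted p = 1.36e-10). The ratio of reads was 23.8 with an interval of 21.7 to 26.1. ASFT shared the low value at 24 h, with 23.5 and 25.7 RPKM with ABA, against 6.23 and 5.52 in mock (1.90 ± 0.23), and had 37.1 and 67.5 RPKM with ABA at 36 h, against 4.79 and 6.19 in mock. Mock libraries of ASFT stayed between 4.67 and 8.24 RPKM over the whole course, below the lowest ABA library (14.9 RPKM). At 1 h the effect was 0.91 ± 0.23, with 14.9 and 15.2 RPKM with ABA, against 8.24 and 6.94 in mock; it just missed the threshold (adjusted p = 0.0541) and passed it with the replicate block (0.00641).

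The 2 synthases, known to act redundantly in elongating suberin acyl chains in Arabidopsis roots, behaved differently from each other. KCS2 (AT1G04220, chr1:1119699-1122786) had 235 and 151 RPKM with ABA at 4 h, against 17.2 and 15.3 in mock, an effect of 3.46 ± 0.35 (adjusted p = 8.94e-07). At 24 h it had 127 and 69.4 RPKM with ABA, against 28.2 and 14.2 in mock (2.18 ± 0.35). That ABA mean was 51.0% of its mean at 4 h, a larger share than in the other 6 genes whose ABA mean was highest at 4 h (7.40% for FAR5 up to 31.9% for GPAT7). At 60 h KCS2 had 137 and 84.3 RPKM with ABA, against 22.0 and 12.7 in mock (2.61 ± 0.35). At 1 h it had 69.6 and 51.1 RPKM with ABA, against 37.8 and 38.4 in mock, and was called with the replicate block alone (0.63, adjusted p = 0.017, against 0.934 without it).

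KCS20 (AT5G43760, chr5:17585523-17588733) had the highest median level of the set, at 157 to 305 RPKM with ABA (median 196) and 154 to 303 RPKM in mock (median 189). Its effects lay between -0.12 at 60 h and 0.47 at 4 h, each ± 0.35, and none was called. At 4 h it had 258 and 206 RPKM with ABA, against 177 and 156 in mock; these did not overlap, and the replicate block called the difference (adjusted p = 0.0054). The mean effect over times was 0.11 ± 0.13 (adjusted p = 0.553; 0.0314 with the block). Replicate 1 of KCS20 was above replicate 2 at all 7 times with ABA and at all 7 times in mock, as was the summed level of the endodermis markers.

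Related genes were set against each other within libraries by an exact two-sided permutation test of the difference in mean ABA effect, with treatment labels permuted within each time over 279936 arrangements and p adjusted over 6 pairs. KCS2 exceeded KCS20 by 2.27, with this sign at 7 of 7 times (adjusted p = 2.14e-05), ranging from 0.64 to 2.99 over times. The effect on FAR1 minus that on FAR4 was -1.15 (adjusted p = 2.14e-05) and minus that on FAR5 -1.40 (5.36e-05), negative at 7 of 7 times in both cases. These ranged from -2.36 to -0.17 and from -3.18 to -0.03 over times. CYP86A1 minus CYP86B1 was -1.13 (adjusted p = 4.29e-05), negative at 7 of 7 times and ranging from -3.58 to -0.05. GPAT5 minus GPAT7 was -0.24 (adjusted p = 0.0837), ranging from -1.30 to 0.35 over times, and FAR4 minus FAR5 was -0.25 (0.0969), ranging from -0.95 to 0.37; a p that misses the threshold does not show that these genes responded alike. With a pseudocount of 0.1 these 2 differences were -0.57 and -1.06, each with an adjusted p of 0.00725. GPAT5 minus GPAT7 also passed without the 12 h ABA replicate 2 (-0.28, adjusted p = 0.041), and FAR4 minus FAR5 without the 36 h ABA replicate 1 (-0.31, 0.0346).

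Coding sequences of KCS2 and KCS20 share 84.6% of aligned bases. Their transcripts share 4 runs of 50 bases, of the 1995 such runs in KCS2, so reads from these runs could not be assigned by sequence alone. GPAT5 and GPAT7 share 78.7% of aligned coding bases, FAR1 and FAR4 77.3%, FAR4 and FAR5 74.4%, FAR1 and FAR5 73.5%, and CYP86A1 and CYP86B1 65.6%. In none of these pairs do the transcripts share a run of 50 bases. ASFT and KCS2 overlap opposite-strand genes of the table by 63 and 41 bases, AT5G41050 (8.02 RPKM with ABA and 10.7 in mock at 4 h) and AT1G04210 (16.0 RPKM with ABA and 17.5 in mock). KCS2 also shares 2302 bases with AT1G04247 and FAR4 198 bases with AT3G06845, both annotated as long non-coding RNA genes on the other strand and neither of them in the table. The library kit keeps strand, per the labels, but the counting mode is not given in the sources used here, so reads of these partners may be counted for KCS2, FAR1, FAR4 and ASFT.

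**Figure D3:**
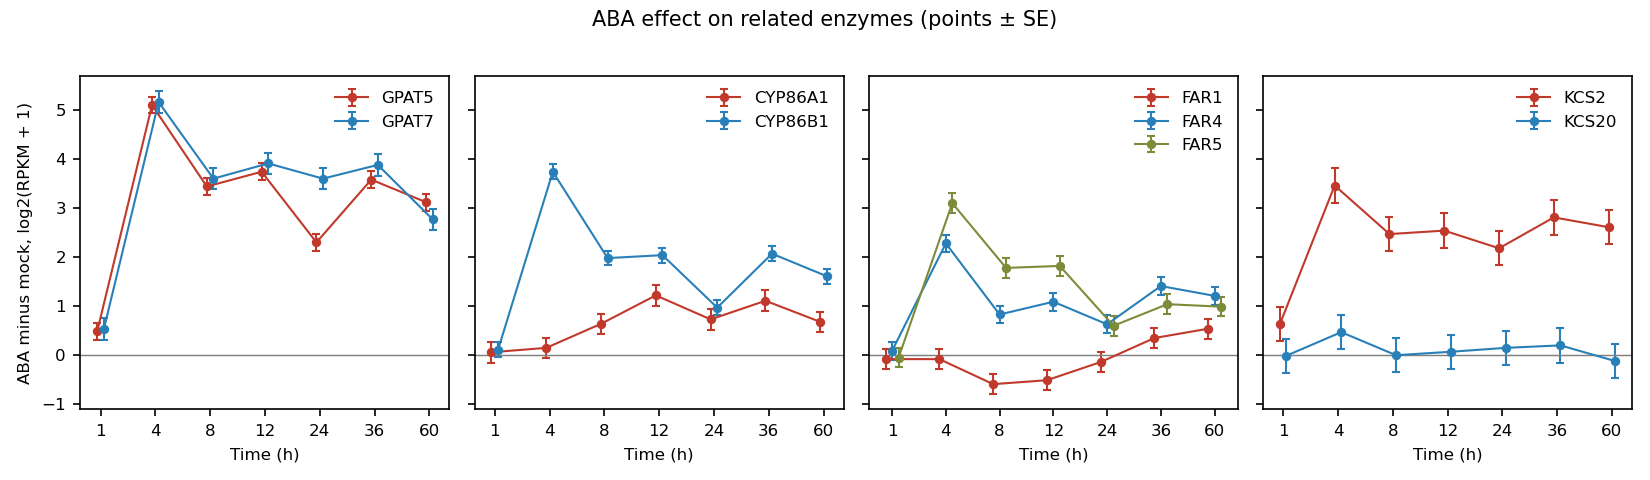
Effect of ABA (ABA minus mock, log2(RPKM + 1), points with ± SE from the limma fit) against time in hours for related enzymes, a panel for each family. GPAT5 and GPAT7 run close together except at 24 h (2.30 and 3.6), whereas KCS20 runs between -0.12 and 0.47 and FAR1 between -0.59 and 0.54, with no time called for either gene.

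The size of the ABA effect changed with time for most of the set. limma's moderated F test for unequal effects over the 7 times called 7 of the 10 genes (GPAT5, GPAT7, CYP86B1, FAR4, FAR5, ASFT and KCS2), against 4.17% of all genes; with the replicate block CYP86A1 (adjusted p = 0.0138) and FAR1 (0.0166) were called too, where 14.2% of all genes were. For the first 7, the ABA mean was highest at 4 h. CYP86A1 had its highest ABA mean at 12 h, FAR1 at 60 h and KCS20 at 1 h. Between 1 h and 4 h the effect rose for the same 7 genes, against 1.95% of all genes, by 2.19 for FAR4 up to 4.63 for GPAT7. At 60 h the effect was lower than at 4 h for 6 genes, against 1.73% of all genes, with differences of -2.39 for GPAT7, -2.13 for CYP86B1, -2.11 for FAR5, -1.98 for GPAT5, -1.58 for ASFT and -1.07 for FAR4. The calls on GPAT7, CYP86B1, FAR5 and GPAT5 had adjusted p between 2.87e-05 and 0.000236, and the replicate block added KCS2 (-0.85, adjusted p = 0.0158) and KCS20 (-0.59, 0.026), where it called 7.40% of all genes lower. ASFT (adjusted p = 0.0129) and FAR4 (0.0254) each lost the call when single libraries were left out. For ASFT these were ABA replicate 1 or mock replicate 2 at either 4 h or 60 h, with adjusted p up to 0.0886. For FAR4 it was any of the 4 h or 60 h libraries but the 4 h ABA replicate 2, with adjusted p up to 0.118. With voom weights on the recovered reads, GPAT7 (adjusted p = 0.217), FAR4 (0.799) and ASFT (0.0759) were not called in this contrast. As stated above, GPAT5, GPAT7, CYP86A1, CYP86B1, FAR4 and FAR5 were low in mock and could pass the authors' filter through their ABA libraries. For these genes the counts and shares over time describe the set and are no test of it.

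For CYP86B1, GPAT5 and FAR4 limma called the effect lower already at 8 h than at 4 h, a contrast examined after the values were seen. The effect at 8 h minus that at 4 h was -1.75 for CYP86B1 (adjusted p = 0.000963), -1.66 for GPAT5 (0.0046) and -1.45 for FAR4 (0.0145), against 0.164% of all genes called lower. The limit given above for genes low in mock holds for this count too. On the same scale GPAT7 had -1.56 (adjusted p = 0.056), FAR5 -1.32 (0.0835), ASFT -1.30 (0.233) and KCS2 -0.99, none of them called. FAR1 (-0.51), KCS20 (-0.47) and CYP86A1 (0.49, the other way) were not called either. The replicate block called 7 genes lower in this contrast (GPAT7, FAR5, ASFT and KCS2 in addition), against 0.497% of all genes, whereas a pseudocount of 0.1 and weights on the recovered reads each called 0. FAR4 lost the call on leaving out any single library of 5 of the 8 at these times (the 4 h ABA replicate 1, either 4 h mock library, the 8 h ABA replicate 2 and the 8 h mock replicate 1), with adjusted p between 0.0679 and 0.12. In RPKM the 8 h ABA mean was 23.1% of the 4 h ABA mean for CYP86B1, 30.8% for GPAT5, 31.7% for GPAT7, 34.8% for FAR5 and 42.5% for ASFT.

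Without ABA, few of the suberin genes were called as seedlings aged in darkness. The moderated F test over the 7 mock groups called 1 gene, FAR1 (adjusted p = 0.000294), against 55.0% of all genes. Over the 14 mock libraries GPAT5, GPAT7, CYP86A1, CYP86B1, FAR4 and FAR5 averaged between 0.0582 RPKM for GPAT7 and 0.408 RPKM for FAR4. At such levels changes are small on the log2(RPKM + 1) scale and could hardly be called. The count of 1 therefore does not show that these genes were steady. Between 1 h and 60 h in mock, FAR1 rose by 1.06 ± 0.20, to 148 and 161 RPKM at 60 h, against 73.7 and 72.5 at 1 h. CYP86A1 rose by 0.56 ± 0.21 (adjusted p = 0.0273), to 0.484 and 1.12 RPKM at 60 h, against 0.218 and 0.194 at 1 h. These 2 of 10 genes compare with 30.3% of all genes called higher. KCS2 fell by 1.14 on the log2 scale (adjusted p = 0.00921), to 22.0 and 12.7 RPKM at 60 h, against 37.8 and 38.4 at 1 h, where 31.1% of all genes were called lower. The CYP86A1 call was lost without either 1 h mock library or the 60 h mock replicate 2 (adjusted p between 0.0805 and 0.301), and the KCS2 call without the 60 h mock replicate 2 (0.127). With ABA, 9 of the 10 genes were higher at 60 h than at 1 h, all but KCS20, against 31.9% of all genes. The limit given above for genes low in mock holds for this count too. KCS2 (0.84 ± 0.35, adjusted p = 0.0444) lost that call without the 1 h ABA replicate 2 (0.232) or the 60 h ABA replicate 1 (0.32), and with quantile normalization (0.0784), median-ratio scaling (0.0502) or voom weights (0.131).

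By level per length, the order of the genes with ABA at 4 h began with KCS20 (232 ± 36.9 RPKM, SD, n = 2 as in all of this order), KCS2 (193 ± 59.7), ASFT (149 ± 18.6) and FAR1 (141 ± 6.11), and each of these overlapped the next. GPAT7 (36.5 ± 5.2) and GPAT5 (34.8 ± 0.707) followed and overlapped each other. CYP86B1 (13.2 ± 1.71), FAR5 (7.92 ± 1.74), FAR4 (5.69 ± 0.516) and CYP86A1 (0.398 ± 0.405) were each apart from their neighbours. In mock at 4 h, KCS20 (166 ± 15.2) and FAR1 (150 ± 22.4) overlapped at the top, and KCS2 (16.3 ± 1.32) and ASFT (5.70 ± 1.22) followed. The other 6 genes averaged between 0.0275 RPKM for FAR5 and 0.378 RPKM for FAR4. The summed level of the 10 genes over all libraries ran from 324 to 899 RPKM with ABA (median 568) and from 309 to 526 RPKM in mock (median 379).

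Among the other genes of chain elongation, more rose than fell at 4 h, with smaller effects than that on KCS2. Of 22 listed, KCS7, KCS14, KCS15, KCS17, KCS18 and KCS21 were not in the table. Of 16 measured, 8 were higher and 1 lower with ABA at 4 h (median effect 0.58), against 8.98% and 3.74% of all genes. With the replicate block 11 were higher, against 16.8% of all genes, and 2 lower, for which the block's share of all genes is not given here. Over the mean of times 10 were higher and 4 lower, against 21.0% and 18.1% of all genes. KCS3 had the largest effect after KCS2, 192 RPKM with ABA and 41.3 RPKM in mock at 4 h (2.16 ± 0.21, adjusted p = 3.95e-07). KCS6, the main synthase of cuticular wax chains, had 603 RPKM with ABA and 210 RPKM in mock (1.5 ± 0.29). The reductase and dehydratase subunits that the synthases share also rose, KCR1 by 1.07 ± 0.18, PAS2 by 1.01 ± 0.21 and CER10 by 0.76 ± 0.16. KCS12, the gene called lower, had 7.18 RPKM with ABA and 18.1 RPKM in mock (-1.23 ± 0.27, adjusted p = 0.00384), and the other 7 were not called.

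**Figure D4:**
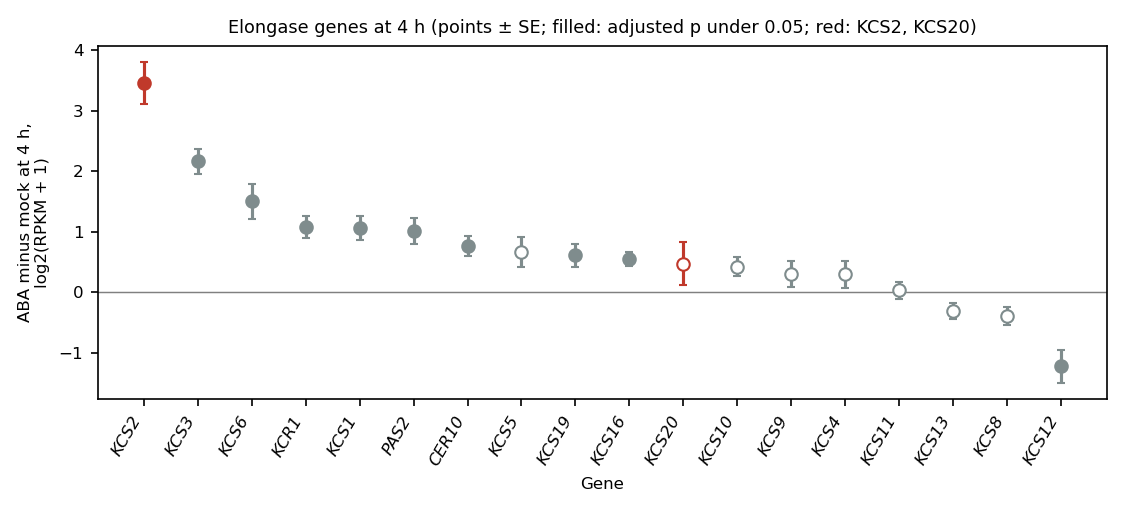
Effect of ABA at 4 h (ABA minus mock, log2(RPKM + 1), points with ± SE from the limma fit) on the 18 measured elongase genes, ordered by effect, with KCS2 and KCS20 in red and genes called at adjusted p under 0.05 filled. KCS2 (3.46) stands above KCS3 (2.16) and KCS6 (1.5), KCS20 (0.47) lies among genes that were not called, and KCS12 (-1.23) is the lowest.

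Most measured genes of suberin export and its MYB regulators were also higher with ABA at 4 h, whereas MYB92 was lower at 60 h. Of 12 listed exporters, lipid transfer proteins and MYB regulators of suberin, MYB39, MYB53 and MYB93 were not in the table. Of 9 measured, 8 were higher at 4 h (median effect 1.73), against 8.98% of all genes, and MYB92 was not called (0.00 ± 0.35). No mock group mean of ABCG2, ABCG6, ABCG20, MYB9, MYB41 or MYB107 was above 0.652 RPKM (ABCG6 at 60 h). The limit given above for genes low in mock under the authors' filter holds for these genes too. MYB92, also known as a suberin regulator, was called lower with ABA at 60 h (-1.16 ± 0.35, adjusted p = 0.0323) and over the mean of times (-0.39 ± 0.13, 0.024). The replicate block called it lower at 24 h (-0.77, adjusted p = 0.00164) and 36 h (-0.90, 0.000403) too. At 60 h 6 of the 9 were higher and 1 lower, against 7.84% and 5.73% of all genes. ABCG6, an exporter of suberin precursors in roots and seed coats, had 67.6 RPKM with ABA and 0.145 RPKM in mock (5.90 ± 0.22). MYB41, a factor known to switch on suberin genes when overexpressed, had 20.3 RPKM with ABA at 4 h and was listed at 0 in both mock libraries (4.40 ± 0.22). LTPG15 had 59.2 RPKM with ABA and 3.00 RPKM in mock (3.91 ± 0.26), and MYB107 2.80 RPKM with ABA and 0.144 RPKM in mock (1.73 ± 0.18). Of 15 phenylpropanoid genes leading to feruloyl-CoA, the donor used by ASFT, 8 were higher and 0 lower at 4 h (median 0.80), among them PAL4 (1.72 ± 0.24) and CYP98A3 (1.20 ± 0.14), and 2 were higher and 1 lower at 60 h. Of all genes 8.98% were higher and 3.74% lower at 4 h, and 7.84% higher and 5.73% lower at 60 h. With the replicate block the counts for these 15 were 10 higher and 1 lower at 4 h and 6 higher and 4 lower at 60 h. The block called 16.8% of all genes higher at 4 h and 14.9% at 60 h. Its share of all genes lower is not given here for these times, so its counts of genes lower have no base to be read against.

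Enzymes of cutin, the related polyester of the shoot surface, had smaller effects. Of 13 listed, GPAT6 and CYP86A7 were not in the table. At 4 h 5 of 11 were higher and 0 lower (median 0.48), against 8.98% and 3.74% of all genes. CYP86A2 (1.01 ± 0.15) and GPAT4 (0.84 ± 0.21) led these. None of the 11 was called at 24, 36 or 60 h, where 6.64%, 8.24% and 7.84% of all genes were higher. With 11 genes, 0 calls is near these shares. Over the mean of times 6 were higher (GPAT4, CYP86A2, CYP86A8, CYP77A4, LACS2 and DCR, by 0.19 to 0.49) and GPAT8 was lower (-0.25 ± 0.08, adjusted p = 0.0227). Of all genes 21.0% were higher and 18.1% lower over this mean. The replicate block called 4 higher at 8 h, against 2 without it, and 5 at 12 h, against 1. It called 15.5% of all genes higher at 8 h and 16.6% at 12 h. The block also called GPAT4 higher at 24 h (0.46, adjusted p = 0.00228), and 2 of the 11 higher and 1 lower at 36 h and again at 60 h. Of all genes it called 13.6% higher at 24 h, 16.0% at 36 h and 14.9% at 60 h, so the late counts of genes higher were near these shares. The block's share of all genes lower is not given here for 36 h or 60 h. Of 2 transferases related to ASFT, FACT (0.06 ± 0.15) and DCF (0.03 ± 0.20), neither was called at 4 h. FACT, known to form caffeate esters of fatty alcohols, was called higher later, at 24 h (1.41 ± 0.15, adjusted p = 2.42e-06), 36 h (1.78 ± 0.15, 8.6e-08) and 60 h (1.19 ± 0.15, 1.17e-05). At 36 h it averaged 3.44 RPKM with ABA and 0.292 RPKM in mock. DCF was not called at any time, but the replicate block called it lower at 60 h (-0.49, adjusted p = 0.00572). FAR3, an acyl reductase of cuticular wax and the only other measured FAR gene of those listed, had an effect of 0.92 ± 0.32 (adjusted p = 0.0723, called higher with the replicate block) at 4 h and was called higher over the mean of times (0.65 ± 0.12, adjusted p = 4.42e-05).

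The 5 genes outside the set whose pattern was most like the mean of the 10 standardised patterns were AT1G54540 (r = 0.993), AT4G03540, listed as CASP-like protein CASPL1C1 (0.989), AT3G50400 (0.987), AT4G36610 (0.986) and the sugar transporter gene SWEET4 (0.985). Likeness here is Pearson's r over 14 group means of log2(RPKM + 1) that share their libraries, among genes with a mean above 1 RPKM. At 4 h AT3G50400 had 54.1 RPKM with ABA and 0.102 RPKM in mock, and AT1G54540 29.0 RPKM with ABA and 0.155 RPKM in mock. Of the 10 genes themselves, GPAT5 was nearest to the mean pattern (0.989), and FAR1 (0.219) and KCS20 (0.257) were farthest from it. Each of the 10 is part of that mean, so these values of r are partly built in.

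The authors' deposited table gave fold changes and false discovery rates for the same genes. At a rate under 0.05 the authors' deposited table had 3 genes higher at 1 h (GPAT5, GPAT7 and ASFT), against 2.22% of all genes, 7 at 4 h (8.88%), 8 at 8 h (7.63%), 8 at 12 h (8.27%), 8 at 24 h (6.56%), 8 at 36 h (7.88%) and 7 at 60 h (7.75%). None was lower at any time in the authors' deposited table, where 0.459% of all genes were lower at 1 h, 3.78% at 4 h, 3.78% at 8 h, 4.22% at 12 h, 4.14% at 24 h, 5.77% at 36 h and 5.54% at 60 h. The limit given above for genes low in mock holds for these counts too. For GPAT5 at 4 h the authors' deposited table listed a log2 fold change of 9.49 (false discovery rate 1.49e-90). CYP86A1 was higher in the authors' deposited table from 8 h (1.76, false discovery rate 0.0188) to 36 h but not at 60 h (1.19, 0.117).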

How the data were processed

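The series measured polyA RNA of whole dark-grown seedlings, in 28 libraries sequenced after a stranded TruSeq preparation, per the labels. The deposited table gives RPKM for 18310 genes that passed the authors' filter on low values; the submitters' processing notes name HTSeq 0.5.4, edgeR 3.6.2 and the build TAIR10. The aligner is not given in the sources used here. The table also holds the authors' deposited log2 fold changes and false discovery rates (p-values adjusted by the authors), which are printed only where named as theirs. Every RPKM value of all 18310 genes was a whole multiple of the step of 1 read within 0.01 reads, which gave depths of 16265926 to 26604530 reads. Counting intervals at 95% are exact and cover counting error only.

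limma 3.58.1 (R 4.3.3) was fitted to log2(RPKM + 1) with a mean for each of 14 groups and an intensity trend, and contrasts were tested two-sided with Benjamini-Hochberg adjustment over all genes. The residual degrees of freedom were 14 and the median SE of an effect at a single time was 0.19. At each of the 7 times, differences between replicates 1 and 2 correlated between ABA and mock over all genes (r between 0.43 and 0.74), so the replicate numbers pair the libraries; this comes from the data, as the labels do not say what a number marks. Alternatives were a pseudocount of 0.1, a mean RPKM of at least 1, quantile and median-ratio scaling, the 4 libraries of a time alone, the replicate block, leaving out each library, and, added after the data were seen, limma with voom weights on recovered reads. The tests were tested on simulated data. The 8 h minus 4 h and 4 h minus 1 h contrasts were added after values were seen. The 10 genes and the gene lists were chosen with earlier results of these data known. A further endodermis marker is not reported here and was left out of that list's counts and sums. All 10 genes are named; from other lists any member may be named beside its counts, and the 5 most alike genes follow a rule on r. Windows and positions are RefSeq's for TAIR10.1, matched by locus (10 of 10), and identity was computed on its coding sequences.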

Additional observations from a re-analysis of the deposited data

Results flagged for a closer look

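The effect of ABA differed between 4 h and 60 h for 6 genes by the limma contrast within 1 fit (ABA minus mock at 60 h, minus the same at 4 h). The differences were -2.39 ± 0.32 for GPAT7, -2.13 ± 0.21 for CYP86B1, -2.11 ± 0.28 for FAR5, -1.98 ± 0.25 for GPAT5, -1.58 ± 0.33 for ASFT and -1.07 ± 0.25 for FAR4 (SE, 2 libraries per group). In KCS2 the contrast itself was not called (-0.85 ± 0.50, adjusted p = 0.557), but the moderated F test over the 7 times was (adjusted p = 0.0345). Groups of 2 libraries were too small to look for single libraries that stand apart.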

How the results depend on the processing

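Of the 45 calls of single genes at single times, 41 held in every fit that left out 1 library and 38 in every setting run. The replicate block moved the count of genes higher from 0 to 2 at 1 h and from 7 to 8 at 4 h, 8 h and 24 h. That count moved from 8 to 9 at 60 h and over the mean of times. Genes lower moved from 0 to 1 at 8 h and at 12 h, and genes lower at 8 h against 4 h from 3 to 7. Beyond the calls given beside the results, the block changed no call of the 10 genes between ABA and mock. Among the 71 genes of the other lists, at 7 times and over their mean, the block added 77 calls higher and 46 lower to 568 tests and removed 0. The block also called more of all genes wherever its shares are given above, so these added calls are not particular to the lists. At 1 h, 2 genes were higher with a pseudocount of 0.1, 1 with quantile normalization and 1 with the 4 libraries of the time alone, against 0. The 4 libraries of a time alone lost FAR4 at 8 h (adjusted p = 0.0532) and 24 h (0.215), CYP86A1 at 12 h (0.0554) and 60 h (0.224), KCS2 at 24 h (0.0578) and FAR5 at 36 h (0.0548). At 8 h, 1 gene (FAR1) was lower with quantile normalization and with voom weights. With voom weights, 3 genes had a lower effect at 60 h than at 4 h, against 6, 0 at 8 h against 4 h, against 3 (0 with a pseudocount of 0.1 too), and 4 had unequal effects over time, against 7. voom moved the median of all genes by -0.158 at 4 h and -0.11 at 8 h, so its effects are read relative to that. In mock between 1 h and 60 h, 1 gene was higher with a mean RPKM of at least 1, which leaves out CYP86A1, and 2 were lower with a pseudocount of 0.1 and with voom. Genes that changed over time in mock numbered 2 with a pseudocount of 0.1, 3 with quantile normalization and 2 with voom, against 1. With a pseudocount of 0.1 the pair differences were -0.57 for GPAT5 minus GPAT7 and -1.06 for FAR4 minus FAR5, both past the threshold. The cause was not tested for any of these.

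Leaving out a library gave 5 to 6 genes higher at 24 h, 4 to 6 with a lower effect at 60 h than at 4 h, 1 to 2 higher and 0 to 1 lower in mock between 1 h and 60 h, 1 to 2 that changed over time in mock, -0.3 to -0.17 for GPAT5 minus GPAT7 and -0.31 to -0.2 for FAR4 minus FAR5.

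Signs turned only for effects that were not called. KCS20 turned at 8 h with quantile normalization (-0.11), median-ratio scaling (-0.02) and voom (-0.12) and at 12 h with quantile normalization (-0.04) and voom (-0.03). Leaving out a library gave ranges that crossed 0 for KCS20 at 1 h (-0.33 to 0.32), 8 h (-0.19 to 0.19), 24 h (-0.28 to 0.58), 36 h (-0.17 to 0.57) and 60 h (-0.51 to 0.28), for FAR1 at 1 h (-0.25 to 0.09), 4 h (-0.23 to 0.07) and 24 h (-0.47 to 0.18), for FAR4 (-0.18 to 0.36) and FAR5 (-0.11 to 0.01) at 1 h, and for CYP86A1 at 4 h (-0.15 to 0.45). The planned edgeR test was not run, since the deposited values are RPKM. In mock, GPAT5, GPAT7, CYP86B1 and FAR5 had at most 12 reads in any library, which limits how well their ratios are known.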
